A study of Mus musculus with 58 samples.

Results

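CIRH1A, UTP3 and UTP6 are 3 ribosome biogenesis factors whose chromatin peak lists were compared with each other in mouse embryonic stem cells. Their members are all 64468 peaks of the 3 lists, of 156215 peaks in the 9 lists that were used. They were taken by the protein named in the sample title, with no use of a measured value. The CIRH1A list held 9689 peaks, the UTP3 list 14562 and the UTP6 list 40217. The series has 58 samples; peak lists came with 9, and the remaining 49 were not analysed here.

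CIRH1A, also known as UTP4, UTP3 and UTP6 belong to the small subunit processome. This large complex of proteins and the U3 small nucleolar RNA assembles on the nascent precursor of ribosomal RNA in the nucleolus, where the precursor is cut and folded into the small ribosomal subunit. CIRH1A is a subunit of its UTP-A module and UTP6 of its UTP-B module, which both bind the precursor early, and UTP3 is the counterpart of yeast Sas10. Chromatin immunoprecipitation followed by sequencing (ChIP-seq) finds the DNA that is fixed together with a protein, whether the protein touches the DNA itself or reaches it through RNA or other proteins.

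Each of the 3 proteins was overexpressed with a tag in its own line, named FB(OE)-CIRH1A, FB(OE)-UTP3 or FB(OE)-UTP6. All 3 lines were made from BirA J1 mouse embryonic stem cells, which carry the biotin ligase BirA, and the strain is given as 129/Ola. No line was treated with an agent. Chromatin was fixed with 3% formaldehyde for 10 min, sheared to 200 to 500 bp and precipitated with 5 µg of FLAG antibody, without a streptavidin step. There was 1 library per protein, so no difference between the proteins has a replicate check and no test between them was possible. The 95% intervals below are Wilson intervals, which cover counting error alone, since peaks of 1 library are not replicates. An overexpressed protein may be found where the protein at its own level is not, and no list of an untagged line was used here. Peak lists hold no expression values, so the stem cell label could not be checked against marker genes.

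The other 6 lists served as a further readout. PSPC1, a paraspeckle protein, was tagged at its own gene in the CJ9 line and fixed with 3% formaldehyde (2 knock-in libraries), or overexpressed in BirA J1 cells and fixed with 1% formaldehyde (1 library). The nuclear RNA-binding proteins hnRNPU, SAFB and SAFB2 (1 library each) were overexpressed in BirA J1 cells. They were fixed with 2 mM of the protein crosslinker DSP and then 1% formaldehyde, with a streptavidin purification besides the FLAG antibody. None of these lines was treated with an agent either.

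The 3 lists were largely nested. Of the CIRH1A peaks, 94.5% (interval 94.0 to 94.9) shared at least 1 bp with a UTP6 peak, and of the UTP3 peaks 93.7% (93.3 to 94.1) did. UTP3 held 72.2% (71.3 to 73.1) of the CIRH1A peaks. In the other direction, UTP6 peaks were found in the CIRH1A list in 22.6% (22.2 to 23.1) of cases and in the UTP3 list in 33.9% (33.4 to 34.3). The UTP6 list thus held nearly all peaks of the shorter lists, while 60.5% (60.0 to 60.9) of its own peaks were in neither. Peaks found in neither of the other lists made up 3.87% of the CIRH1A list and 5.19% of the UTP3 list.

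Peaks of the 3 lists that overlapped were merged into 41427 regions, and each region was put in 1 of 7 classes by the lists with a peak in it. All 3 lists had a peak in 6811 regions (16.4%, interval 16.1 to 16.8). UTP3 and UTP6 without CIRH1A shared 6743 regions (16.3%), and CIRH1A and UTP6 without UTP3 shared 2269 (5.48%). CIRH1A and UTP3 without UTP6 shared 155 regions (0.374%), the smallest class. UTP6 had 24318 regions to itself (58.7%), UTP3 had 756 (1.82%) and CIRH1A 375 (0.905%). Regions without UTP6 came to 1286 (3.10%). The size of the classes without UTP6 depended on the overlap rule. With a reciprocal overlap of at least 50%, CIRH1A alone had 1464 regions, UTP3 alone 1683 and CIRH1A with UTP3 486. With windows of 500 bp around each peak midpoint they had 670, 1180 and 305. Spacing and chromosome shares of the classes are given below with the 1 bp rule alone. In 6666 of the 6811 regions with all 3 proteins, each list had exactly 1 peak. In 6778 of them a single CIRH1A peak overlapped peaks of both other lists, so the class is made of sites with all 3 peaks at 1 place and seldom of chains of neighbouring peaks.

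The length of the UTP6 list sets part of these numbers. With the 9689 highest scoring peaks of each list, which are all CIRH1A peaks, 66.5% of the UTP3 list and 24.1% of the UTP6 list, the lists gave 15752 regions. The deposited score of the last UTP6 peak kept was 184.4 and that of the first left out 184.39, and for UTP3 both were 70.03. All 3 lists then had a peak in 4314 regions (27.4%). The pair classes became more alike in size, with 1983 regions of UTP3 and UTP6, 1350 of CIRH1A and UTP6 and 1262 of CIRH1A and UTP3. The classes of a single list held 2691 regions for CIRH1A, 2110 for UTP3 and 2042 for UTP6. The cut sets all 3 lists to the same number of peaks, so it cannot show whether UTP6 has more sites. CIRH1A had the most regions to itself at equal length, but with the full lists it had 375. Most of the 2691 thus had a peak of another list that the cut left out.

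**Figure D1:**
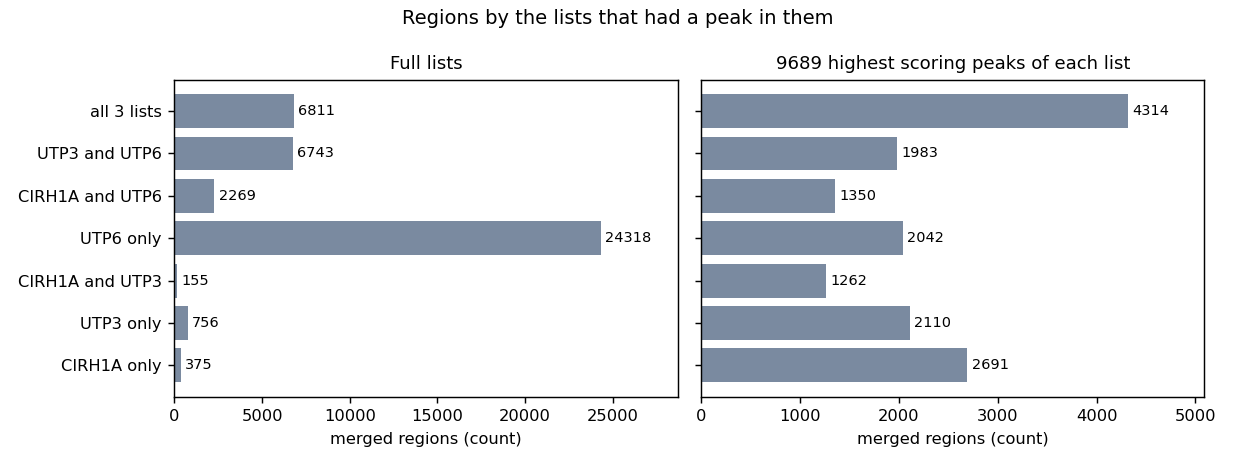
Number of merged regions (horizontal axis) in each of the 7 classes, with the full lists on the left and the 9689 highest scoring peaks of each list on the right. UTP6 alone is the largest class of the full lists with 24318 regions, and the class of all 3 lists is the largest at equal length with 4314.

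At equal length, the pair that shared most peaks was UTP3 and UTP6. Of the UTP3 peaks, 65.2% (interval 64.2 to 66.1) were found in UTP6, and 57.5% (56.5 to 58.5) in CIRH1A. Of the UTP6 peaks, 65.0% (64.0 to 65.9) were found in UTP3 and 58.4% (57.5 to 59.4) in CIRH1A. CIRH1A peaks were found at like shares in both, 57.9% (56.9 to 58.9) in UTP3 and 59.0% (58.1 to 60.0) in UTP6. The shares found in both other lists lay between 44.4% and 44.7% for all 3 proteins. With the 1000 highest scoring peaks, UTP3 and UTP6 again shared most, with 51.4% (48.3 to 54.5) of UTP3 peaks in UTP6, beside 40.0% (37.0 to 43.1) of CIRH1A peaks in UTP3 and 41.2% (38.2 to 44.3) in UTP6. With the 5000 highest the same shares were 60.4%, 51.9% and 52.6%. Each cut keeps a larger part of the CIRH1A list than of the others, and the kept peaks differ in width. Among the 9689 of each list, peaks of regions with all 3 proteins had median widths of 938 bp for CIRH1A, 1208 bp for UTP3 and 1584 bp for UTP6. Whether this sets the order of the pairs was not tested. With the full lists, 94.5% of CIRH1A peaks and 93.7% of UTP3 peaks were found in UTP6.

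No order of the pairs could be seen at the very top. Among the 100 highest scoring peaks, 77 CIRH1A peaks were found in UTP3 (67.8 to 84.2%), 64 in UTP6 (54.2 to 72.7%), and 69 UTP3 peaks were found in UTP6 (59.4 to 77.2%). These intervals overlap. The 3 sets of 100 made 147 regions, of which 57 had all 3 proteins. At 1000 peaks, 279 of 1953 regions had all 3, and at 5000, 1883 of 8637. The share of regions with all 3 proteins was thus highest in the top 100 of each list, lower in the top 1000 and higher again in longer lists.

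Higher scoring peaks were found in the other lists more often. From the lowest to the highest score decile, the share of UTP6 peaks found in CIRH1A ran from 2.81% (2.34 to 3.37) to 73.5% (72.1 to 74.9). The share found in UTP3 ran from 5.69% (5.02 to 6.45) to 90.8% (89.9 to 91.7). UTP3 peaks were found in CIRH1A in 23.8% of the lowest decile and 81.0% of the highest, and in UTP6 in 82.3% and 99.6%. CIRH1A peaks were found in UTP3 in 48.9% of the lowest decile and 96.0% of the highest, and in UTP6 in 86.9% and 98.8%. Even the weakest CIRH1A and UTP3 peaks were thus mostly within the UTP6 list, whereas the weakest UTP6 peaks were seldom in either. Width rose along with score: the median UTP6 peak of the lowest decile was 668 bp wide and that of the highest 1594 bp, and a wider peak can overlap more easily.

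**Figure D2:**
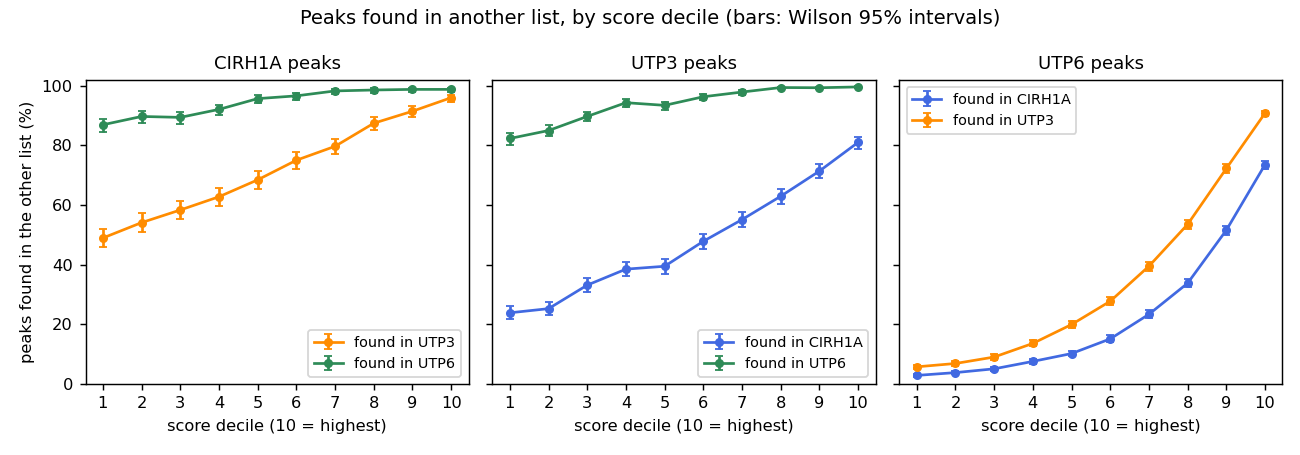
Share of CIRH1A, UTP3 and UTP6 peaks found in each other list (vertical axis, percent) by score decile within the list, where 10 is the highest; bars are Wilson 95% intervals. UTP6 peaks go from 2.81% to 73.5% found in CIRH1A and from 5.69% to 90.8% found in UTP3.

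The rank of a peak followed the number of lists that shared it. UTP6 peaks in regions with all 3 proteins had a median score percentile of 86.7 within the UTP6 list, where 100 is the highest score. UTP6 peaks shared with UTP3 were at 68.9, those shared with CIRH1A at 65.3, and those in neither at 33.7. CIRH1A peaks had medians of 59.5 with both others, 32.0 with UTP6, 31.6 with UTP3 and 21.6 alone. UTP3 peaks had medians of 66.2 with both others, 39.9 with UTP6, 39.6 with CIRH1A and 17.3 alone. With the full lists, the pair classes of CIRH1A and of UTP3 had almost the same rank whichever protein was the partner. At equal list length this still held for CIRH1A peaks, with 46.8 beside UTP6 and 47.5 beside UTP3. It did not hold for UTP3 peaks, with 52.2 (49.8 to 54.5) beside UTP6 and 37.2 (35.4 to 39.2) beside CIRH1A.

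The highest scores stood at the same places in all 3 lists. Scores of 3100 or more were reached in 8 regions, and those 8 regions reached that score in each of the 3 lists. Their positions on mm9 are chr11:108872670-108873745, chr15:74915599-74917784, chr17:39979629-39986023, chr2:98506088-98507742, chr3:5860033-5861092, chr9:35112495-35113489, chrX:166526851-166527545 and 1 stretch of 2154 bp on unplaced sequence. Most of the scores there were exactly 3100, and the highest were 3206.94 for CIRH1A and 3133.39 for UTP3, both on chromosome 9, and 3177.44 for UTP6, on chromosome 11. These regions were not particular to the 3 proteins: 3 of the 8 had a peak in all 6 other lists, and the remaining 5 had one in 4 or 5 of them. No gene or repeat is named for any region, because the gene tables at hand are of another genome build than the lists.

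Below those scores, the best ranked regions of the smaller classes showed how a strong site of 1 protein could be missing from another list. At chr8:56203857-56209089, a stretch of 5233 bp, UTP3 scored 1257.92 (rank 32 of its list) and UTP6 797.29 (rank 53), and the CIRH1A list had no peak. The next regions of UTP3 and UTP6 were at chrX:114967882-114969826, with scores of 364.78 (rank 140) and 499.76 (rank 222), and at chr8:104671081-104672483, with 324.75 (rank 176) and 492.57 (rank 242). The best region of CIRH1A and UTP6 without UTP3 ranked lower, at chr3:121847770-121848985 with 178.2 (rank 454) for CIRH1A and 354.13 (rank 1315) for UTP6. The next one, chr11:3022584-3026436, had a stronger CIRH1A peak, with 464.78 (rank 91), beside 290.47 (rank 2931) for UTP6. The best region of CIRH1A and UTP3 without UTP6 was chr8:19853109-19860428, 7320 bp wide, with 227.47 (rank 240) and 294.55 (rank 228).

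Each protein also had strong regions to itself. The best UTP6 region was chr4:14753113-14754396 with a score of 605.61 (rank 94). The best UTP3 region was chr8:19782868-19787278 with 671.51 (rank 57). The best CIRH1A region was chr19:40582890-40583563 with 269.46 (rank 192). All 3 had a peak in at least 1 of the 6 other lists. The widest region of the 3 lists was chr9:2999970-3009039 with 9070 bp, shared by UTP3 (rank 1480) and UTP6 (rank 13858) and absent from CIRH1A. Of the 2 regions that held 6 peaks, the first by position was chr1:110223521-110225319, where each list had 2.

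With the full lists, regions were wider the more lists shared them. The median width was 1562 bp (quartiles 1224 and 2012) with all 3 proteins, 1249 bp with UTP3 and UTP6 and 1224 bp with CIRH1A and UTP6. It was 992 bp with CIRH1A and UTP3, 848 bp (705 and 1121) for UTP6 alone, 717 bp for UTP3 alone and 639 bp for CIRH1A alone. At equal list length the order held in part: regions with all 3 proteins were again the widest, with 1639.5 bp, but those of UTP6 alone, with 1342.5 bp, were wider than those of CIRH1A and UTP3, with 1148 bp. A merged region can be no narrower than its widest peak, so the UTP6 peaks themselves were also compared within quartiles of the UTP6 score, each a group of equal size. In the highest quartile, UTP6 peaks of regions with all 3 proteins had a median of 1574 bp (1256 and 1986) and UTP6 peaks in neither other list 1304 bp (1062 and 1624). In the lowest score group the medians were 837 and 705 bp. The interquartile ranges overlap in both groups. Scores were not alike within a group: the median score in the highest quartile was 275.685 with all 3 proteins and 208.84 in neither other list.

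Where the 3 proteins shared a region, the midpoints of their peaks lay close together. In the 6666 regions with 1 peak each, CIRH1A and UTP3 midpoints were a median of 104 bp apart, CIRH1A and UTP6 112.5 bp, and UTP3 and UTP6 97 bp. All 3 medians are below the shortest DNA fragments of the protocol. The median widths were 909 bp for CIRH1A, 1115 bp for UTP3 and 1486 bp for UTP6, so the longest list also had the widest peaks at the same places. The CIRH1A peak lay wholly inside the UTP6 peak in 80.1% (79.1 to 81.0) of these regions. UTP3 lay inside UTP6 in 62.3% (61.1 to 63.5), and CIRH1A inside UTP3 in 44.2% (43.0 to 45.4). These regions were picked because their peaks overlap, which limits the offsets, and a narrow peak fits inside a wide one more easily. Whether offsets and nesting go beyond that was not tested. Scores rose together across these regions, with a Spearman rho of 0.565 for UTP3 and UTP6, 0.431 for CIRH1A and UTP6 and 0.409 for CIRH1A and UTP3. The regions of a list come from 1 library and are not independent, so these are descriptions.

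Regions without UTP6 lay closer to other regions. For the 1286 of them the median gap to the nearest region of any class was 7117 bp, and 59.3% (56.6 to 62.0) had a neighbour within 10 kb. Over all 41427 regions the median gap was 13218 bp and the share within 10 kb 40.9% (40.4 to 41.3). By class, the median gap was 5737 bp for CIRH1A and UTP3, 6627 bp for CIRH1A alone and 7839.5 bp for UTP3 alone. It was 11798 bp for CIRH1A and UTP6, 13022 bp for UTP6 alone, 14124 bp for all 3 proteins and 15103 bp for UTP3 and UTP6. The nearest UTP6 peak was a median of 8285 bp away from regions of CIRH1A alone, 9298.5 bp from UTP3 alone and 7078 bp from the 2 together. It was within 1 kb for 50 (13.3%), 76 (10.1%) and 21 (13.5%) of them, so most were further than 1 kb from a UTP6 peak. Whether these shares differ from those of other positions was not tested.

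At equal list length the same order held in part. Regions of CIRH1A and UTP3 again had the shortest median gap, 20803.5 bp, and regions of UTP3 and UTP6 the longest, 62892 bp, beside 37157 bp over all regions. CIRH1A alone was at 25944.5 bp, UTP3 alone at 34789 bp and all regions without UTP6 at 27198.5 bp. UTP6 alone was at 48600 bp and all 3 proteins at 38951 bp, the reverse of their order with the full lists.

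**Figure D3:**
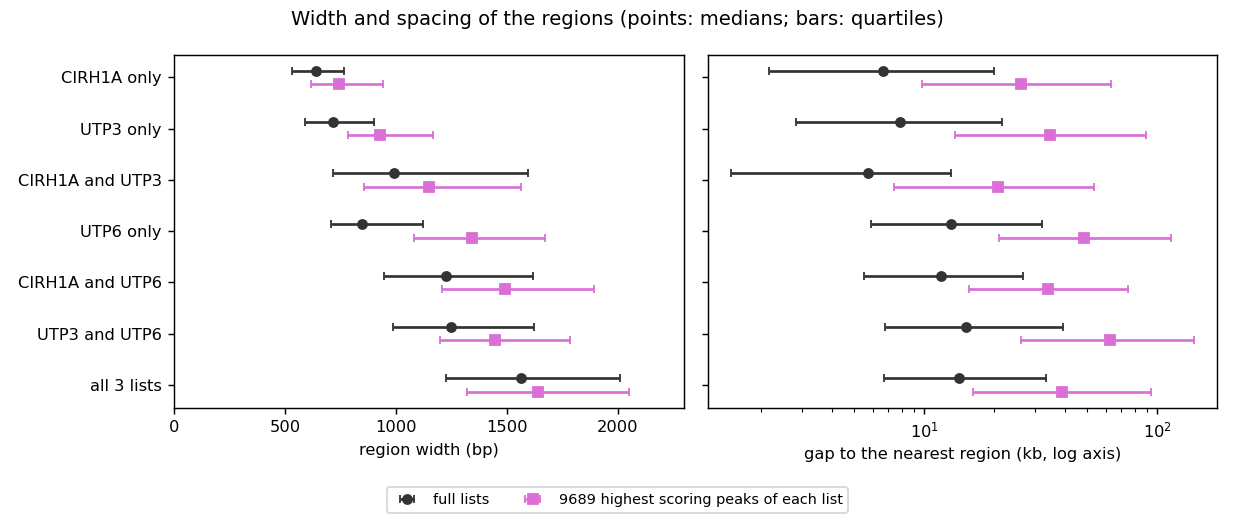
Median width of the merged regions in bp (left) and median gap to the nearest region in kb on a log axis (right) for each class; bars run between the quartiles. Circles are the full lists and squares the 9689 highest scoring peaks of each list; widths go from 639 bp for CIRH1A alone to 1562 bp for all 3 lists.

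The share of UTP6 peaks found in the other lists differed between chromosomes. No input library was analysed here, so the amount of DNA of each chromosome in the 3 lines was not tested. On chromosome 8, 31.4% (29.6 to 33.1) were found in CIRH1A and 42.7% in UTP3, and on chromosome 1, 26.2% (24.8 to 27.7) and 42.1%. The medians over chromosomes 1 to 19 and X were 21.9% and 32.3%. In both lists chromosome 8 stood highest of the 20 chromosomes and chromosome 1 came next. The same chromosomes came first in the highest score quartile of UTP6 peaks. There, chromosome 8 had 75.9% found in CIRH1A and 88.7% in UTP3, and chromosome 1 had 65.0% and 88.2%, beside medians of 55.7% and 74.0%. In the lowest score quartile the order was another. Chromosome 14 stood highest there, with 8.24% (6.04 to 11.2) found in CIRH1A and 12.7% (9.93 to 16.1) in UTP3, and chromosome 1 had 2.97% found in CIRH1A, beside a median of 2.94%.

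The high shares were spread along both chromosomes. In bins of 10 Mb, 18 of 20 bins of chromosome 1 were above the median of the other chromosomes for CIRH1A, and 20 of 20 for UTP3. On chromosome 8, 12 of 13 bins were above it for CIRH1A and 13 of 13 for UTP3. Among regions with all 3 proteins, 11.7% lay on chromosome 1 and 9.79% on chromosome 8, against 8.90% and 6.61% of all regions. Of the UTP6 regions without the others, 5.58% (5.30 to 5.88) lay on chromosome 8. With lists of equal length the difference was larger, with 9.76% (8.91 to 10.7) of regions with all 3 proteins and 2.84% (2.20 to 3.65) of UTP6 regions alone on chromosome 8. Chromosome 8 held 9.03% of CIRH1A peaks, 8.25% of UTP3 peaks and 6.57% of UTP6 peaks, and between 4.72% and 7.97% of the peaks of the other 6 lists. Chromosome 1 held 10.1% of CIRH1A peaks, 10.9% of UTP3 peaks and 8.91% of UTP6 peaks. It held more of the knock-in PSPC1 lists, 4137 of 18455 peaks (22.4%) and 4355 of 22926, and between 7.93% and 8.58% of the other 4.

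On the X chromosome, the shares found in CIRH1A and in UTP3 lay on opposite sides of their medians over all UTP6 peaks. Of the UTP6 peaks there, 16.8% were found in CIRH1A, the lowest share of the 20 chromosomes, and 39.0% in UTP3, the third highest. In the highest UTP6 score quartile, the shares on the X were 38.9% (33.5 to 44.7) in CIRH1A and 86.0% (81.5 to 89.5) in UTP3. The next lowest chromosome for CIRH1A was chromosome 10 with 48.6% (44.2 to 53.1). For UTP3 the high share on the X was present in the highest score quartile alone. From the lowest to the third quartile, 5.46%, 11.0% and 34.1% were found in UTP3, beside medians over chromosomes of 6.36%, 13.4% and 34.8%. For CIRH1A the X was lowest of the 20 chromosomes in every quartile but the lowest one, where it had 3.83% (1.87 to 7.68) beside a median of 2.94%. UTP6 peaks on the X had a median score of 122.625, against 110.7 on chromosome 1 and 113.48 on chromosome 8. The class of UTP3 and UTP6 without CIRH1A had 3.28% (2.88 to 3.73) of its regions on the X, and the class of CIRH1A and UTP6 without UTP3 had 0.926% (0.606 to 1.41). At equal list length these shares were 6.35% (5.36 to 7.51) and 0.444% (0.204 to 0.966), beside 2.51% of all regions. The CIRH1A list as a whole had 1.76% of its peaks on the X, UTP3 2.55% and UTP6 2.25%.

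**Figure D4:**
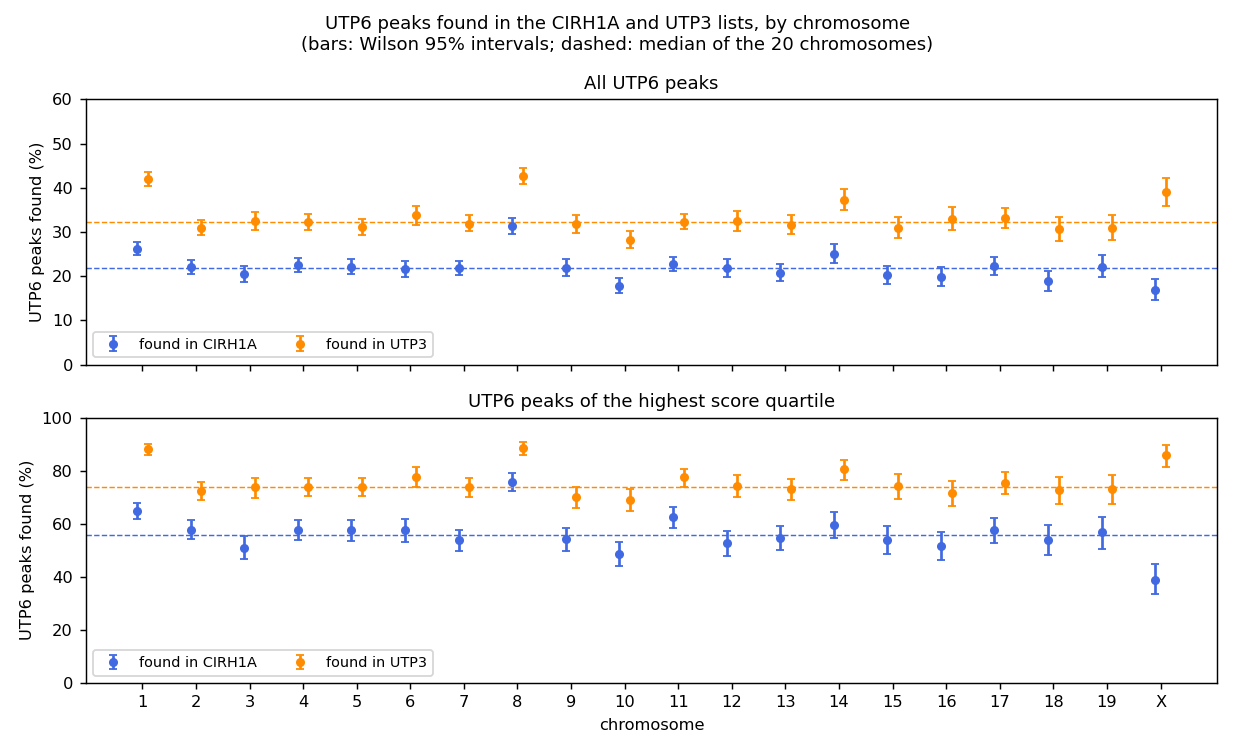
Share of UTP6 peaks found in the CIRH1A and UTP3 lists (vertical axis, percent) on chromosomes 1 to 19 and X, for all UTP6 peaks (top) and the highest score quartile (bottom); bars are Wilson 95% intervals and dashed lines the medians of the 20 chromosomes. In both panels chromosomes 1 and 8 are high for both proteins, and the X is the lowest for CIRH1A and the third highest for UTP3. The other score quartiles, with the exceptions given above, are not drawn.

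With the full lists, the small class of CIRH1A and UTP3 without UTP6 was concentrated on chromosome 14. That chromosome held 41 of its 155 regions (26.5%, interval 20.1 to 33.9), against 4.46% of all regions. Of the class, 25.2% lay in 5 bins of 1 Mb. On chromosome 14, the bin from 4 to 5 Mb held 10 of its regions, the bin from 5 to 6 Mb 9 and the bin from 6 to 7 Mb 5, and bins on chromosomes 4 and 13 held 8 and 7. The other classes without UTP6 were also frequent there. Chromosome 14 held 11.2% of the regions of CIRH1A alone and 11.5% of those of UTP3 alone, the fullest bin of both was the one from 7 to 8 Mb, and their 5 fullest bins held 9.07% and 8.33%. The 5 fullest bins of the class with all 3 proteins held 2.04% of it, and those of UTP6 alone 0.843%. These shares depend on class size: the 155 regions lay in 91 bins, the 6811 in 1999 and the 24318 in 2566. Counting all classes, the 5 fullest bins of CIRH1A and UTP3 held 71, 69, 51, 68 and 105 regions, in the order given above. In the first 10 Mb of chromosome 14, UTP6 peaks were not rare and were more often shared. In that bin, 125 of 254 UTP6 peaks (49.2%) were found in CIRH1A and 156 (61.4%) in UTP3, while the next highest bin of the chromosome reached 28.2% and 39.2%. Most of this was lost with lists of equal length, where 8.16% (6.78 to 9.80) of the class of CIRH1A and UTP3 lay on chromosome 14. The shares there were 6.21% for CIRH1A alone, 5.45% for UTP3 alone and 4.90% for all regions. Unplaced sequence held 6.93% of the regions of CIRH1A alone, 0.456% of those of UTP6 alone and 0.731% of all regions.

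The classes were then compared in the 6 other lists, which had not been used to define them. Of all 41427 regions, 38.3% had a peak of overexpressed PSPC1, 23.8% and 31% had one of the first and the second knock-in PSPC1 library, 17.9% had one of hnRNPU, 11.2% of SAFB and 7.23% of SAFB2. Regions with all 3 proteins were above these levels in each list. Overexpressed PSPC1 had a peak in 77.1% (76.1 to 78.1) of them and in 23.1% (22.6 to 23.6) of the regions of UTP6 alone. For hnRNPU the shares were 45.8% (44.6 to 46.9) and 7.49% (7.16 to 7.83), for SAFB 24.0% and 6.34%, and for SAFB2 17.0% and 3.79%. For the knock-in lists they were 38.1% and 18.2% in library 1 and 49.9% and 23.8% in library 2.

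The pair classes that include UTP6 lay in between in all 6 lists, over all scores. Overexpressed PSPC1 had a peak in 57.1% (55.0 to 59.1) of the regions of CIRH1A and UTP6 and in 52.1% (50.9 to 53.3) of those of UTP3 and UTP6. The order of the pairs was the other way round for hnRNPU, SAFB and SAFB2. For hnRNPU the shares were 23.9% (22.2 to 25.7) and 26.8% (25.7 to 27.8). With windows of 500 bp they were 21.4% (19.7 to 23.1) and 25.4% (24.4 to 26.5). For SAFB2 they were 7.45% (6.44 to 8.60) and 9.55% (8.87 to 10.3). For SAFB they were 12.5% (11.2 to 13.9) and 15.7% (14.9 to 16.6). With windows of 500 bp the SAFB order turned, to 9.40% (8.26 to 10.7) and 8.40% (7.75 to 9.09). In both knock-in lists the intervals of the pairs overlapped with the full lists. At equal list length the pair of CIRH1A and UTP6 was higher in both. The shares were 36.3% (33.8 to 38.9) and 31.3% (29.3 to 33.4) in library 1, and 47.9% (45.3 to 50.6) and 40.9% (38.8 to 43.1) in library 2. With windows of 500 bp the order in library 1 turned, to 20.6% (18.93 to 22.28) and 23.3% (22.30 to 24.34). In library 2 the intervals then overlapped. Overexpressed PSPC1 had a peak in 14.1% (11.0 to 18.0) of the regions of CIRH1A alone and in 14.3% (12.0 to 17.0) of those of UTP3 alone, both below UTP6 alone. These low shares did not hold under other settings. They were 45.3% and 44.6% at equal list length, beside 56.5% for UTP6 alone, and 32.5% and 24.2% with windows of 500 bp, beside 22.3%. SAFB2, the shortest of the 9 lists, had a peak in 18.1% (12.8 to 24.9) of the regions of CIRH1A and UTP3 and in 17.0% (16.1 to 17.9) of those with all 3 proteins. At equal list length these were 12.4% (10.7 to 14.4) and 20.9% (19.7 to 22.1).

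None of the 6 other lists had a peak in 508 of the regions with all 3 proteins (7.46%, interval 6.86 to 8.11), against 40.0% of all regions. The corresponding shares were 54.8% for UTP6 alone, 56.8% for CIRH1A alone and 53.0% for UTP3 alone. At least 4 other lists had a peak in 1750 regions with all 3 proteins (25.7%), against 8.20% of all regions. All 6 others had a peak in 143 regions, of which 114 were regions with all 3 proteins. Sites shared by CIRH1A, UTP3 and UTP6 thus mostly had a peak in at least 1 other list, most often that of overexpressed PSPC1. That list had a peak in 77.1% of them, against 38.3% of all regions. The shares were 45.8% against 17.9% for hnRNPU, 24.0% against 11.2% for SAFB and 17.0% against 7.23% for SAFB2. For knock-in PSPC1 they were 38.1% against 23.8% in library 1 and 49.9% against 31.0% in library 2. List length differed, with 22785 peaks for overexpressed PSPC1, 10279 for hnRNPU, 10632 for SAFB and 6670 for SAFB2. The shares were not adjusted for it. Which part of the sites with all 3 proteins an untagged line would give was not tested.

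Score moves with class, so the comparison was repeated within quartiles of the UTP6 score. UTP6 peaks of regions with all 3 proteins were found more often than UTP6 peaks in neither other list in 24 of 24 combinations of list and quartile. The intervals were apart in 22, and they overlapped in the lowest quartile of both knock-in lists. There the class of UTP3 and UTP6 had more than the class with all 3 proteins, 25.0% (21.6 to 28.8) against 16.8% (11.4 to 24.1) in library 1 and 32.3% (28.5 to 36.3) against 22.9% (16.5 to 30.8) in library 2. For overexpressed PSPC1 the shares from the lowest to the highest quartile were 31.3%, 51.7%, 67.6% and 82.4% with all 3 proteins, and 12.6%, 20.9%, 35.0% and 52.9% for UTP6 peaks in neither. For hnRNPU they ran from 19.8% to 51.3% with all 3 proteins and from 3.93% to 21.9% in neither. Within a quartile the peaks with all 3 proteins still had the higher median score, in the lowest quartile 61.72 against 59.67, and they were wider, as given above. Every peak was also cut or extended to 500 bp around its midpoint, so that peak width was equal. Overexpressed PSPC1 was then found at 75.9% of the regions with all 3 proteins and 22.3% of those of UTP6 alone. Merged regions with all 3 proteins could still be wider than 1 window, and score was not held equal there.

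**Figure D5:**
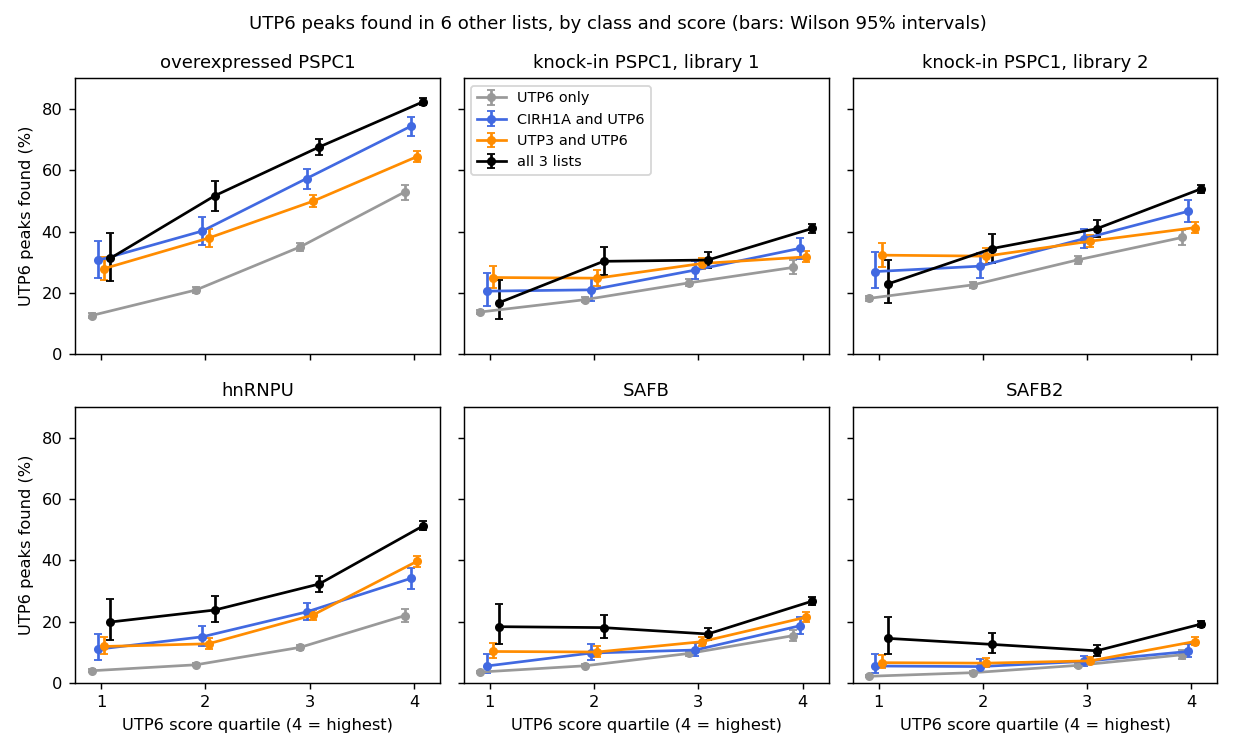
Share of UTP6 peaks found in each of the 6 other lists (vertical axis, percent) by quartile of the UTP6 score, for UTP6 peaks in neither CIRH1A nor UTP3, with 1 of them, or with both; bars are Wilson 95% intervals. The line of all 3 lists is above the line of UTP6 alone in every quartile of every panel, from 31.3% against 12.6% to 82.4% against 52.9% for overexpressed PSPC1.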

How the data were processed

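The deposited lists give chromosome, start, end, peak name and score per peak. The score is the authors' own value, of no stated scale, and was used to rank peaks within a list alone. The peak names carry the name MACS; its version, threshold and control are not given in the sources used here. The submitters' processing notes name the build mm9, CASAVA, Bowtie2 and TopHat, with no role given. Each library has its own list, so nothing was pooled. Read depth is unknown. Positions were counted from 1.

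Peaks sharing at least 1 bp overlapped, and overlapping peaks of the 3 lists were merged. Shares carry Wilson 95% intervals, and no p-value was computed. Named regions are the 5 of the class with all 3 lists and the 3 of each other class with the best mean score percentile, plus the widest and the one with most peaks; for the smaller classes some of these are given. The regions with a score of 3100 or more were added after their values were seen. Score ties were ordered by position. The members, classes and comparisons were chosen with earlier results of these data known. The alternatives tried were lists of equal length, gaps of up to 1000 bp, a 50% reciprocal overlap, 500 bp windows, the top 50% of each list, and chromosomes 1 to 19 and X alone. Genes at the peaks had also been planned and were not run, since the gene tables used here are of another build. The procedure was tested on simulated peaks. The software was matplotlib 3.10.9, networkx 3.6.1, scipy 1.17.1, pandas 2.3.3 and numpy 2.4.6 under Python 3.11.15.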

Additional observations from a re-analysis of the deposited data

How the results depend on the processing

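No paired analysis was possible because each of the 3 proteins has 1 library. The shares of peaks found in another list are given in the order CIRH1A in UTP3, CIRH1A in UTP6, UTP3 in CIRH1A, UTP3 in UTP6, UTP6 in CIRH1A and UTP6 in UTP3. They were 65.2%, 72.0%, 43.4%, 83.8%, 17.4% and 30.3% with a reciprocal overlap of 50%, and 68.8%, 88.8%, 45.7%, 89.2%, 21.4% and 32.3% with windows of 500 bp. With gaps of up to 1000 bp they were 73.1%, 95.2%, 48.7%, 94.4%, 23.2% and 34.6%. With lists of equal length they were 57.9%, 59.0%, 57.5%, 65.2%, 58.4% and 65.0%. With the top 50% of each list the first 4 were 65.4%, 92.7%, 43.5% and 92.6%, and the classes of UTP6, CIRH1A and UTP6, UTP3 and UTP6, and all 3 held 11938, 1425, 3674 and 3060 regions. With lists of equal length these classes held 2042, 1350, 1983 and 4314 regions. Fewer UTP6 peaks enter there by construction. For UTP6 alone and for all 3, that setting gave median UTP6 score percentiles of 27.2 and 68.1, widths of 1342.5 and 1639.5 bp and gaps of 48600 and 38951 bp. Their shares with a peak of overexpressed PSPC1 were 56.5% and 83.4%, against 22.3% and 75.9% with windows of 500 bp. The class of CIRH1A and UTP3 then had 8.16% on chromosome 14, and that of UTP3 and UTP6 6.35% on the X. Of 142 further values under the alternatives, some of them given above, 111 moved, 67 upward and 44 downward, and 31 did not. A share or median counted as moved beyond its interval, and a count of regions beyond 1.5 times. Depth is unknown, and list length cannot be told apart from depth or from the protein.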
